A study of Mus musculus with 2 samples.

Results

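The Krtap8-1/Mt4 cells were droplets of P1 mouse back skin in which UMIs of Krtap8-1, Krt90, Crtac1 and Mt4 together reached 5 and were at least as many as the UMIs of Krt31, Krt32, Krt82, Krt86, Dsg4 and S100a3 together. UMIs are unique molecular identifiers, which count captured mRNA molecules. Cells with 20 or more UMIs per 10000 of the inner root sheath keratins Krt71, Krt25, Krt27 and Krt73 were left out. The rule found 2229 cells among 16453 droplets that held 2000 to 60000 UMIs, 1000 to 8000 genes and at most 20% mitochondrial UMIs. It was set on these counts, so that the 4 rule genes, and every other difference from the remaining droplets, describe the cells and are given with no test.

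The study profiled single epithelial cells of untreated P1 back skin. The epidermis was removed, the dermal fraction with its growing hair follicles was dissociated, and live tdTomato-positive cells were sorted for sequencing. One library was labelled WT and one PADI4 cKO, both as batch 1. The mouse lines were Krt14-Cre, with Cre driven by the Krt14 promoter of basal keratinocytes, Padi4 fl/fl (B6.Cg-Padi4tm1.2Kmow/J) and the tdTomato reporter Ai14. The study describes the sorted cells as K14-Cre;tdTomato. For cultured cells, a figure legend gives WT as K14-Cre with Padi4 +/fl, while the methods describe WT lines as Cre negative. The Padi4 alleles of the WT animals behind this library and the number and sex of the animals in each library are not given in the sources used here. With 1 library per genotype there was no replicate check: intervals cover counting error only at 95%, and genotype, animal and library cannot be told apart.

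The hair shaft is built from matrix cells of the bulb, which divide, leave the cell cycle and enter concentric lineages. The medulla is the central column of the shaft, surrounded by the cortex and the cuticle, and these are enclosed by the inner root sheath. Hoxc13 and Foxq1 encode transcription factors linked to the formation of the medulla. Peptidylarginine deiminases, encoded by the Padi genes, convert arginine residues to citrulline, and trichohyalin (Tchh), a structural protein of inner root sheath and medulla, is a known substrate of this family.

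Mt4 gave most of the rule-gene UMIs, and Krtap8-1 is the rule gene that belongs to the hair shaft proteins. Mt4 encodes a metallothionein, a small metal-binding protein of stratified epithelia, and Krtap8-1 a keratin-associated protein of the hair shaft. On mm10 (GRCm38), Mt4 lies on the plus strand of chromosome 8 at chr8:94137197-94139031 and Krtap8-1 on the minus strand of chromosome 16 at chr16:89487379-89487952, both as protein-coding genes. Their promoters are shown because both genes define the cells and were detected together in only part of them. The 250 bases before the start of each gene (RefSeq, GRCm38.p6, given 5′ to 3′ on the strand of the gene) carry TATAAA, and the Mt4 window also GNGTGCA, in capitals. The first window is chr16:89487953-89488202 and the second chr8:94136954-94137203. The RefSeq start of Mt4 lies a few bases inside the GENCODE gene given above, so the window overlaps it.
Krtap8-1: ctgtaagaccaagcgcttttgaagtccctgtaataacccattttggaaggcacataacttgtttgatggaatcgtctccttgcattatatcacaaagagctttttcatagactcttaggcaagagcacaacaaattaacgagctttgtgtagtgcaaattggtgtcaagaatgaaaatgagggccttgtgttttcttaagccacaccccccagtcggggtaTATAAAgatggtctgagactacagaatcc
Mt4: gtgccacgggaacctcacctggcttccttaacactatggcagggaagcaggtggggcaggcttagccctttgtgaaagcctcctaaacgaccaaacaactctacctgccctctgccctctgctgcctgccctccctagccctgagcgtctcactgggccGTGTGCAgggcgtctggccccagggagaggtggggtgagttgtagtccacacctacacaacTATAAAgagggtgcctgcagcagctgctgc

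TATAAA began 29 bases before the start of Krtap8-1 and 30 bases before that of Mt4, and on either strand it was found in 12.4% of the 32851 promoter windows of this length. GNGTGCA is the reverse strand of TGCACNC, 1 form of the core of the metal response element, and began 91 bases before the start of Mt4. TGCACNC or its variant TGCGCNC, which do not overlap the other motifs here, occurred on either strand in 21.4% of windows. The LEF/TCF motif CTTTGA, found on either strand in 13.8% of windows, was in neither. These matches describe letters in the windows and not binding.

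The cells were present in both libraries. They were 1097 of 8661 filtered WT droplets (12.7%, exact binomial interval 11.97 to 13.4%) and 1132 of 7792 droplets of the PADI4 cKO-labelled library (14.5%, 13.8 to 15.3%). The whole libraries held 143938990 and 143945294 UMIs, of which the cells took 21777557 and 24342014. A fixed minimum of UMIs favors deeper cells, and the median depth was 17243 UMIs in the WT cells and 19854.5 in those of the PADI4 cKO-labelled library, against 13584.5 and 15017.5 in the other droplets. With a minimum of 5 rule-gene UMIs per 10000 in place of 5 UMIs, the shares were 8.62% and 9.60%. Of the barcodes, 17 occurred among the filtered droplets of both libraries and 0 among the Krtap8-1/Mt4 cells.

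**Figure D1:**
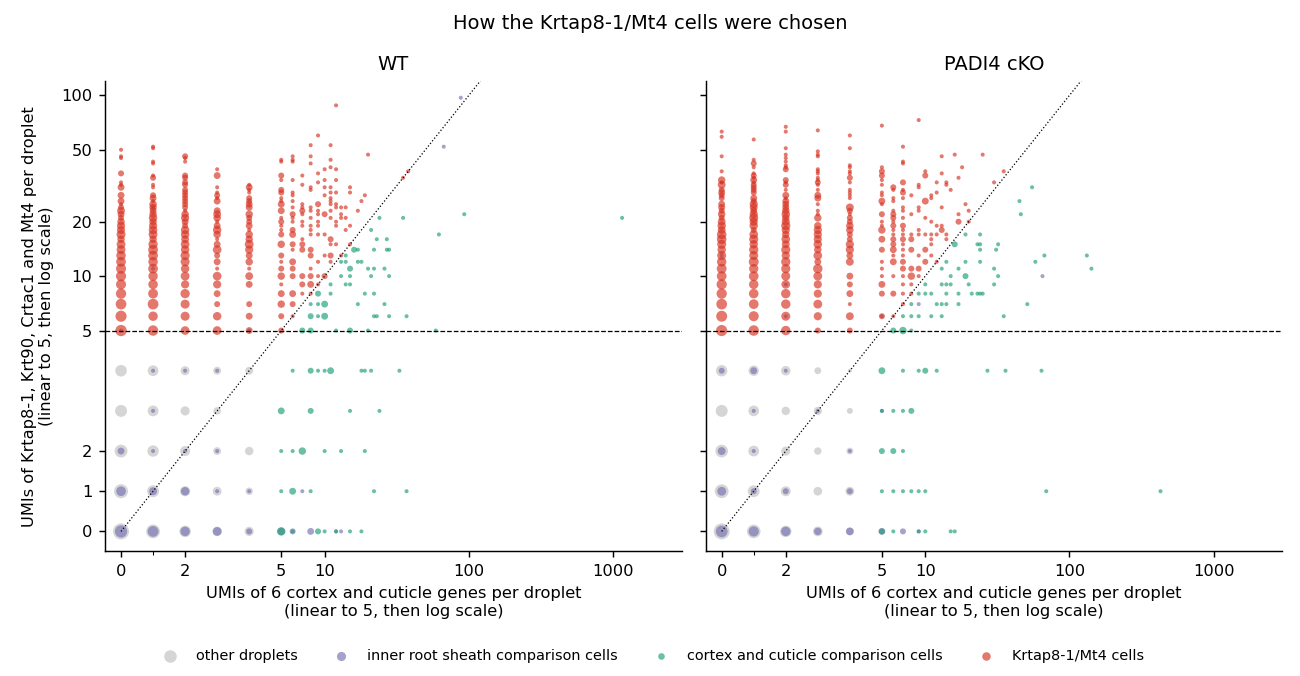
UMIs of the 4 rule genes (y axis) against UMIs of 6 cortex and cuticle genes (x axis) per filtered droplet, on axes that are linear to 5 and logarithmic above, with larger dots for more droplets. The dashed line marks 5 UMIs and the dotted line equal sums; the 1097 WT cells and the 1132 cells of the PADI4 cKO-labelled library lie on or above both lines, and their rule-gene UMIs reach 88 and 73.

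Mt4 outweighed the other rule genes. It gave 86.3% of the rule-gene UMIs of the WT cells and 91.4% in the PADI4 cKO-labelled library, and it was the only rule gene detected in 665 cells (60.6%) and 773 cells (68.3%). A Krtap8-1 UMI was found in 275 WT cells (25.1%) and 214 cells (18.9%) of the other library, against 1.08% and 0.826% of the remaining droplets. Crtac1, which encodes cartilage acidic protein 1, was detected in 25.7% and 20.1% of the cells, and the type II keratin gene Krt90 in 10.1% and 5.48%. All 4 genes were found in 43 and 30 cells. In most cells, Mt4 alone met the rule.

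The edge of the class was gradual. At exactly 5 rule-gene UMIs there were 100 WT cells and 91 cells in the PADI4 cKO-labelled library, and with 4 UMIs, just outside, 118 and 100 droplets. Hoxc13, which the rule did not use, stood at 136 and 124 UMIs per 1000000 UMIs (CPM, summed over cells) just inside and at 111 and 103 just outside. Krt35, a hair shaft keratin gene, was at 339 and 118 CPM inside and 168 and 68.3 CPM outside. Another 63 and 62 droplets reached 5 UMIs but held more cortex and cuticle UMIs, and 5 and 4 were left out for inner root sheath keratins.

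The markers bore out the medulla label in part. Of 6 textbook medulla genes, Hoxc13, Msx2, Foxq1 and Padi3 were more than 1 log2 unit above the other droplets in both libraries. Tchh was below by more than that, and Krt75 was lower by 0.70 and 1.14 on the log2 scale. Of all genes, 1.84% were higher and 12.0% lower by more than 1 unit in both libraries. Hoxc13 was at 300.5 CPM in the WT cells and 266.9 in the PADI4 cKO-labelled library, against 76.6 and 76.5 in the other droplets. Foxq1 stood at 20.9 and 25.9 CPM against 7.37 and 8.14. Msx2, a homeobox gene, was at 243.6 and 235.3 CPM against 65.3 and 70.6. Tchh, in contrast, was at 2.53 and 2.10 CPM against 26.0 and 9.54 in the other droplets and 41.0 and 50.7 in droplets under 100 UMIs, which hold free RNA. Most of these genes did not set the class apart from the cortex and cuticle comparison cells (Foxq1, at 12.9 and 5.53 CPM there, was higher in the class). In those cells the 6 genes summed to 1087 and 904.5 CPM, against 605.1 and 551.9 in the class, and Hoxc13 stood at 682.1 and 627.5 CPM and Padi3 at 32.8 and 17.1, against 11.2 and 5.96 in the class. The cells are therefore named here by the rule genes Krtap8-1 and Mt4, although only 25.1% and 18.9% of them held a Krtap8-1 UMI.

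All 6 genes given for the class were higher than in the other droplets, 4 of them by construction. Ednra, the endothelin receptor type A gene, was at 118.7 CPM in the WT cells and 88.4 CPM in the PADI4 cKO-labelled library, against 5.32 and 4.31 CPM in the other droplets, log2 differences of 4.48 and 4.36. Odc1, which encodes the rate-limiting enzyme of polyamine synthesis, was at 596.3 and 483.7 CPM against 58.3 and 43.4, differences of 3.35 and 3.48. Neither gene was part of the rule. Mt4 itself was at 635.1 and 658.5 CPM against 24.6 and 22.5, and at 156.4 and 174.9 in droplets under 100 UMIs. Of the other droplets, 16.2% and 15.8% held at least 1 Mt4 UMI, and the part of free RNA in this was not tested.

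**Figure D2:**
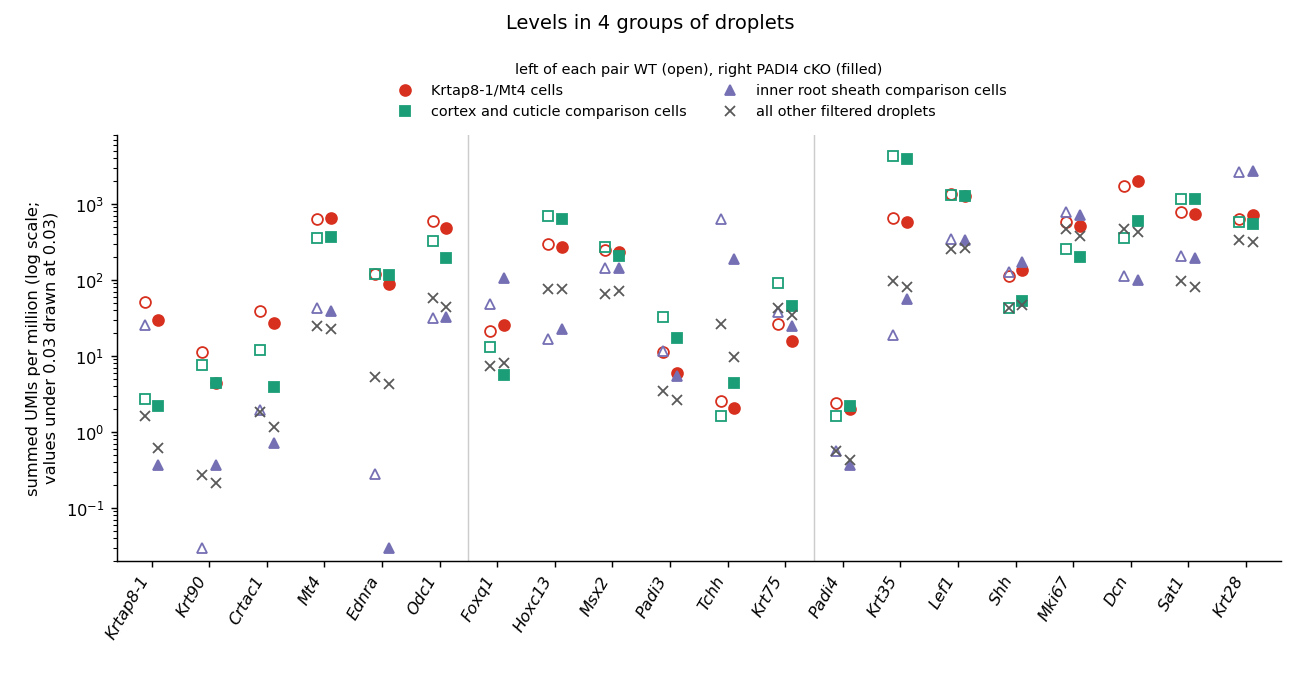
Summed CPM (log scale) of 20 genes in the Krtap8-1/Mt4 cells, in cortex and cuticle comparison cells (111 WT, 96 PADI4 cKO), in inner root sheath comparison cells (232 and 160) and in all other filtered droplets, with WT as open and PADI4 cKO as filled symbols. The vertical lines part the 6 given genes, the 6 textbook medulla genes and further genes; Krtap8-1 is highest in the Krtap8-1/Mt4 cells, while Krt35 and Hoxc13 are highest in the cortex and cuticle cells.

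Over all genes, 244 of 13259 (1.84%) were more than 1 log2 unit higher than in the other droplets in both libraries, and 1585 (12.0%) more than 1 unit lower. Beside the given genes, the highest included Lmo2, a transcriptional cofactor gene, at 21.3 and 27.0 CPM against 1.17 and 1.59, and Stra6, which encodes a receptor for retinol-binding protein, at 8.59 and 6.20 CPM against 0.51 and 0.22. Crhr1, a receptor gene for corticotropin-releasing hormone, stood at 46.6 and 53.0 CPM against 3.40 and 3.36. Notum and Bmper, genes of secreted inhibitors of Wnt and modulators of BMP signaling, were at 53.3 and 48.5 and at 77.3 and 62.0 CPM, against 6.10 and 5.18 and against 8.13 and 5.36. The lowest included the collagen genes Col3a1, Col6a1, Col6a2 and Col1a1 and the epithelial genes Krt6a, Klk7 and Sprr1a, each with at most 8 UMIs in the cells of either library. The other droplets were not cleared of fibroblasts, which the study left out of its later analysis.

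Several of these genes were not particular to the class. In the cortex and cuticle comparison cells, which had at least 5 UMIs of the 6 cortex and cuticle genes and more than of the rule genes, Crhr1 was at 74.7 and 84.0 CPM, Bmper at 87.1 and 94.5 CPM and Notum at 64.5 and 56.9 CPM, above the Krtap8-1/Mt4 cells in both libraries. Ednra there was at 119.9 and 114.4 CPM. Lower in those cells, by construction, was the rule gene Krtap8-1, at 2.69 and 2.21 CPM against 51.2 and 29.9. The rule gene Crtac1 was likewise lower by construction, at 11.8 and 3.87 CPM against 38.4 and 27.4. Krt90, also a rule gene, was lower there in WT but not in the PADI4 cKO-labelled library. Lmo2, which the rule did not use, was at 12.4 and 12.2 CPM there. The 2 groups of cells were defined from the same counts, and differences between them were not tested.

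The hair shaft keratin genes Krt35 and Krt86 were above the other droplets and below the cortex and cuticle cells. Of 16 cortex and cuticle genes, 6 had enough UMIs, and 4 of these (Krt35, Krt86, Dsg4 and S100a3) were higher than in the other droplets, as were 1.84% of all genes; the rule limits the last 3. Krt35 was found in 77.7% of the WT cells and 71.8% of those of the PADI4 cKO-labelled library, at 650.6 and 573.4 CPM, against 96.7 and 80.4 CPM in the other droplets and 4291 and 3933 CPM in the cortex and cuticle cells. Of 6 inner root sheath genes, 0 were higher and 2 lower, beside 1.84% and 12.0% of all genes, with medians of −0.84 and −0.65. The rule limits 4 keratins of this list. Krt28, an inner root sheath keratin gene, was at 623.8 and 715.3 CPM, against 329.8 and 313.3 in the other droplets and 2629 and 2702 in the inner root sheath comparison cells.

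Genes of dividing matrix cells were detected in part of the class. Shh, a hedgehog ligand gene of the matrix, was at 111.7 and 135.6 CPM against 42.3 and 46.2 in the other droplets. With each cell thinned to 2000 UMIs, Mki67, a marker of cycling cells, was detected in 47.4% (44.4 to 50.4%) of the WT cells and 46.7% (43.8 to 49.7%) of the cells labelled PADI4 cKO, against 36.3% and 29.1% of the other droplets. The share was 58.6% and 56.9% in the inner root sheath comparison cells and 17.1% and 19.8% in the cortex and cuticle cells. No gene of the 42 of S phase or the 52 of G2 and mitosis passed 1 log2 unit in both libraries. A list drawn up for cell cycle exit also holds D cyclin genes. Of its 10 genes compared, 2 were higher and 0 lower, beside 1.84% and 12.0% of all genes, with medians of −0.01 and 0.09. The higher genes were Cdkn1a, an inhibitor of cyclin-dependent kinases (1.43 and 1.71), and Ccnd2, a D cyclin gene (1.21 and 1.31).

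Wnt and BMP pathway genes were found on both sides. Of the 22 Wnt genes compared, 8 were higher and 10 lower, where 1.84% of all genes were higher and 12.0% lower. Lef1, the nuclear effector of Wnt signaling, stood at 1340 and 1286 CPM against 255.6 and 259.4, and the ligand gene Wnt5a was higher by 2.52 and 2.39 log2 units, while Tcf7l1 was lower, at −2.26 and −2.53, as was the receptor gene Lgr5, at 55.6 and 36.8 CPM against 295.0 and 337.0. Of 15 BMP genes, 5 were higher and 2 lower. The ligand genes Bmp2, at 84.6 and 95.2 CPM against 20.9 and 20.7, and Bmp4, at 2.02 and 2.01 log2 units, were among the higher. The receptor gene Bmpr1b was lower, at −3.21 and −2.95. Of 24 transcription factor genes of the shaft lineages, 9 were higher, Msx1 among them at 315.9 and 356.3 CPM against 45.9 and 51.8, and 4 lower, with Barx2 at −2.74 and −3.02. The median over all genes was −0.07 in both libraries.

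Of 15 polyamine genes, 2 were higher and 1 lower, beside 1.84% and 12.0% of all genes. Sat1, which encodes the enzyme that acetylates spermidine and spermine, was at 787.6 and 740.0 CPM against 96.5 and 80.3. In the cortex and cuticle comparison cells Sat1 was above the class, at 1174 and 1169 CPM. Amd1, of the other regulated step of polyamine synthesis, was lower than in the other droplets, at 15.0 and 17.01 CPM against 61.3 and 65.9. Of the 31-base stretches at the 3′ end of Amd1, 26.4% are shared with Amd2, so its counts are uncertain. Of 20 metallothionein and zinc genes, 4 were higher and 1 lower, with medians of −0.10 and −0.12. Mt1, Mt2 and Slc39a11 were higher beside Mt4, which the rule used, and the zinc transporter gene Slc30a4 was lower (−1.91 and −2.09). Mt1 stood at 2326 and 2158 CPM against 1039 and 930.1, and at 1591 and 1446 CPM in droplets under 100 UMIs.

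Immune and endothelial markers were near 0, and those of several other cells were not. The 6 fibroblast markers summed to 1702 and 1993 CPM, against 509.2 and 464.5 in the other droplets, and Dcn, the decorin gene and the most abundant of them, gave 1700 and 1991 CPM of this. Col1a1 gave 8 UMIs in the cells of each library and Col3a1 4, so that the defining collagen markers were near 0 while Dcn was found in 92.7% and 93.6% of the cells. Immune markers summed to 0.37 and 0.86 CPM and endothelial markers to 1.19 and 0.94 CPM. Melanocyte markers summed to 104.2 and 101.4 CPM, against 131.1 and 135.4 in the other droplets, outer root sheath markers to 1462 and 1302 CPM against 4624 and 4043, and companion layer markers to 522.0 and 360.7 CPM against 2043 and 1990. Their part in the results was not tested. Sebaceous and upper follicle markers were lower, with 3 of 4 and 4 of 5 genes below the other droplets by more than 1 log2 unit, as were 12.0% of all genes. Doublets were called for 8.57% and 8.22% of the class, against 3.36% and 3.82% of all droplets, and without them 242 genes were higher and 1779 lower.

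Within the class, cells were ordered by rule-gene UMIs per 10000 and divided into quartiles at 4.01, 6.76 and 11.01. Krtap8-1, Krt90, Crtac1 and Mt4 differ between them by construction and were left out. Of 10095 genes, 159 (1.58%) were more than 1 log2 unit higher in the top than in the bottom quartile of both libraries, and 385 (3.81%) more than 1 unit lower. Ednra went from 38.8 CPM in the bottom quartile to 253.6 in the top quartile of the WT cells, and from 26.6 to 176.7 in the PADI4 cKO-labelled library. Gpnmb, a transmembrane glycoprotein gene, went from 11.01 to 227.2 and from 6.18 to 79.97 CPM, and the ligand gene Bmp6 from 2.37 to 38.4 and from 1.98 to 16.3. Plce1, Fam25c, Dsg4, Ly6g6d, Pld5, Dapl1 and 4933431K23Rik completed the 10 highest; Dsg4 is 1 of the cortex and cuticle genes that the rule limits.

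The summed shaft transcription factors were at 6507 CPM in the bottom and 6963 in the top quartile of WT, and at 6868 and 6894 in the other library. Krt35 went from 266.4 to 1299 CPM in the WT cells and from 208.6 to 1181 in the other library, and Hoxc13 from 153.1 to 580.8 and from 144.3 to 449.6. Lgr5, a marker of lower follicle progenitors, went from 108.6 to 6.44 and from 74.7 to 6.14 CPM. Frem1, which encodes an extracellular matrix protein, stood at 13.9 and 18.8 CPM in the bottom quartile and at 0.23 and 1.06 in the top, and Tll1, Gulp1, Ntn1, Cdh13, Sema3c, Prlr and Prss35 were likewise among the 10 lowest. Shh was at 151.0 and 150.3 CPM at the bottom and at 50.4 and 67.7 at the top.

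**Figure D3:**
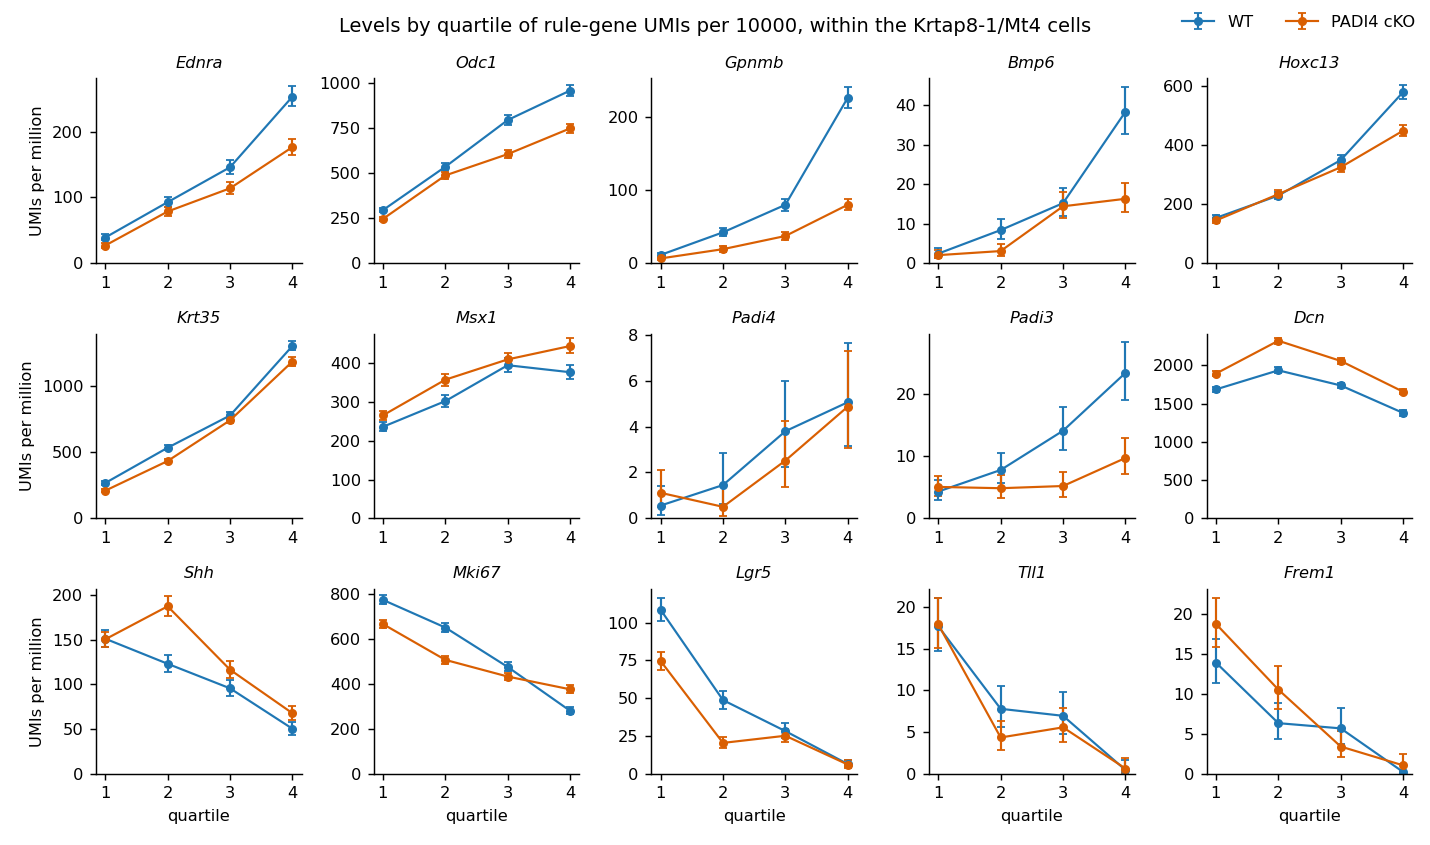
Summed CPM of 15 genes by quartile of rule-gene UMIs per 10000 within the Krtap8-1/Mt4 cells, WT in blue and PADI4 cKO in orange, with exact Poisson intervals for counting error. Ednra, Krt35 and Hoxc13 are higher in quartile 4 than in quartile 1, and Lgr5 goes from 108.6 to 6.44 in WT and from 74.7 to 6.14 in PADI4 cKO.

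The thinned share of cells with Mki67 went from 70.0% (64.0 to 75.4%) to 25.3% (20.4 to 30.8%) in WT and from 64.97% (59.2 to 70.4%) to 31.1% (25.6 to 37.0%) in the PADI4 cKO-labelled library. Depth and doublet calls moved in the same order: the median went from 24743 to 14146.5 UMIs and from 24358 to 16432.5 UMIs, and doublet calls went from 18.6% to 1.74% and from 17.01% to 1.48%. Without doublets 204 genes were higher and 295 lower; with thinned cells, 44 and 81 of fewer genes past the minimum. Cells with at least 5 cortex and cuticle UMIs went from 7.22% to 31.2% and from 6.12% to 27.8%, but the rule lets no cell hold more of these than rule-gene UMIs and so limits them in the lower quartiles. The part of depth in the quartile values was not tested further.

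The class was also divided by whether a cell held a Krtap8-1 UMI. Krtap8-1 is a rule gene, so the values of this split describe it and are no test. Ednra was at 294.5 CPM with and 61.2 CPM without a Krtap8-1 UMI in WT (log2 difference 2.27, 2.15 to 2.38), and at 238.4 and 54.5 CPM in the PADI4 cKO-labelled library (2.13, 2.01 to 2.25). Gpnmb was higher by 2.80 and 2.33, and Krt90 by 3.07 and 2.92. Shh was lower, at 32.1 against 137.7 CPM in WT and 58.65 against 152.9 CPM in the other library. Mt4 differed by 0.18 and 0.34, but the rule adds up both genes, so a cell without Krtap8-1 had to enter through the others, and nothing is read from the Mt4 and Krt90 values. Foxq1 did not follow it in the same way in both libraries, with 0.97 (0.69 to 1.25) in WT and −0.31 (−0.64 to 0.0032) in the other. The median depth was 16172 UMIs in the WT cells with a Krtap8-1 UMI and 17636.5 in those without, and 18797 against 20023 in the PADI4 cKO-labelled library.

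Padi4, the targeted gene, was at low levels in the class of both libraries. On mm10 it lies on the minus strand of chromosome 4 at chr4:140745865-140774236. A Padi4 UMI was found in 47 of 1097 WT cells (4.28%, 3.16 to 5.66%) and in 39 of 1132 from the PADI4 cKO-labelled library (3.45%, 2.46 to 4.68%), with 52 and 49 UMIs, or 2.39 CPM (1.78 to 3.13) and 2.01 CPM (1.49 to 2.66). In the other droplets the shares were 0.65% and 0.63%, in the inner root sheath comparison cells 0.86% and 0.62%, and in the cortex and cuticle comparison cells 2.70% and 4.17%, from 3 and 4 cells. Droplets under 100 UMIs stood at 0.98 and 0.39 CPM. The log2 ratio of the PADI4 cKO-labelled library over WT was −0.25 (−0.84 to 0.34), an interval that holds 0. A 3′ library need not cover the floxed exons, so these counts check neither the deletion nor the label.

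Padi4 stood higher in the upper than in the lower quartiles. From the bottom to the top quartile it stood at 0.56, 1.45, 3.80 and 5.06 CPM in WT and at 1.113, 0.50, 2.52 and 4.87 CPM in the PADI4 cKO-labelled library. After thinning, 0.82% and 0.44% of the cells held a Padi4 UMI, too few for a comparison. Its neighbor Padi3, whose enzyme modifies trichohyalin, was at 11.2 CPM (9.80 to 12.7) in 15.4% of the WT cells and 5.96 CPM (5.03 to 7.01) in 10.1% of those labelled PADI4 cKO, a log2 ratio of −0.90 (−1.21 to −0.60). Padi3 CPM was also lower in the PADI4 cKO-labelled library in the cortex and cuticle cells (32.8 and 17.1 CPM) and the inner root sheath cells (11.8 and 5.43 CPM). These values rest on few cells with a Padi3 UMI, 24 and 14 in the former and 23 and 10 in the latter. After thinning, the cortex and cuticle shares went the other way, at 1.80% and 3.125%. All other droplets stood at 3.50 and 2.63 CPM, and droplets under 100 UMIs at 4.59 and 4.28 CPM. In the top quartile Padi3 stood at 23.5 and 9.73 CPM. Padi1, Padi2 and Padi6 gave at most 11 UMIs in the cells of either library.

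Between the libraries, within the class, most genes differed by little. Of 11400 genes with at least 100 UMIs, 103 (0.904%) had a log2 ratio of PADI4 cKO over WT above 0.5 and 310 (2.72%) below −0.5, and the counting intervals of 98 and 299 of these left out 0. The median was −0.02. Among markers of other cells, 3 of 4 upper follicle and 2 of 2 companion layer genes lay below −0.5 and 0 above. Of 7 outer root sheath genes, 1 lay below. The upper follicle and companion layer medians were −0.62 and −0.63, against −0.02 and −0.16 in the other droplets. In cells with Xist and without Y-linked UMIs these medians were 1.39 and 0.34. The part of other cells in the lower genes was not tested. Of the given genes, Krt90 stood at 11.4 CPM in WT and 4.35 in the PADI4 cKO-labelled library (−1.38, −1.73 to −1.05) and Krtap8-1 at 51.2 and 29.9 CPM (−0.78, −0.91 to −0.64). Crtac1 (−0.49), Ednra (−0.43) and Odc1 (−0.30) had smaller ratios, and Mt4 was at 0.05. Since a cell enters through the sum of 4 genes that is mostly Mt4, ratios of the rule genes depend on the rule. Gpnmb, at 77.05 and 30.7 CPM, had a ratio of −1.33 (−1.45 to −1.20).

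**Figure D4:**
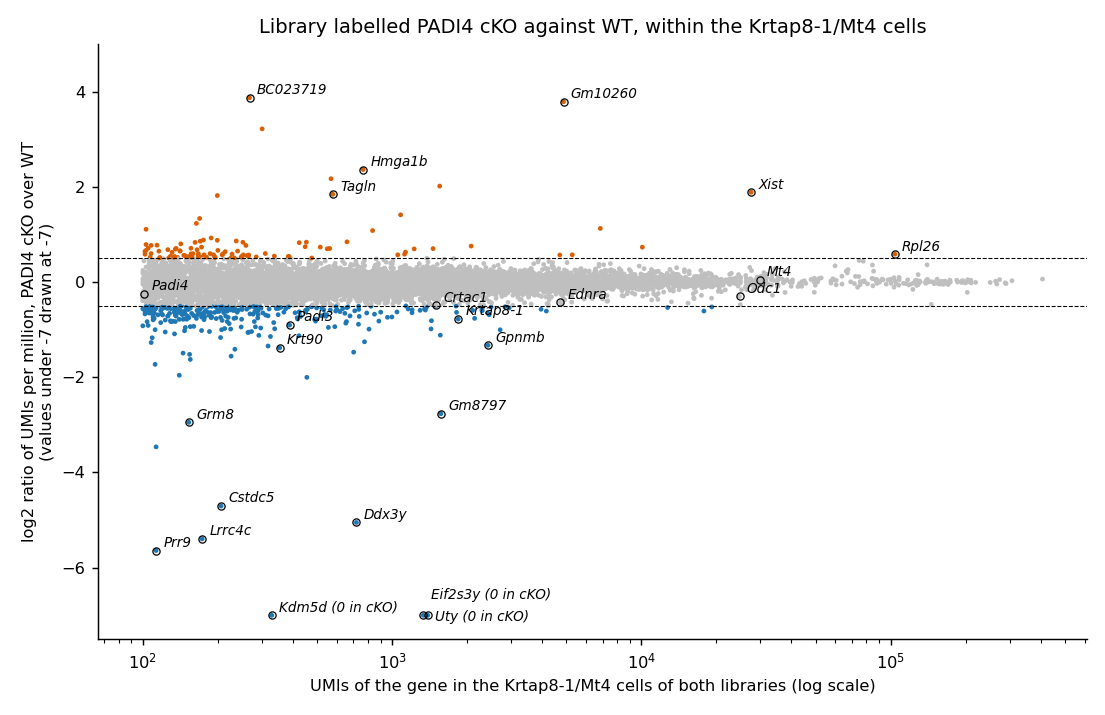
Log2 ratio of CPM of the PADI4 cKO-labelled library over WT within the Krtap8-1/Mt4 cells (y axis) against the UMIs of each gene over both libraries (x axis, log scale), 1 dot per gene. The 103 genes above 0.5 are orange and the 310 below −0.5 blue; Krtap8-1, Krt90, Padi3 and Gpnmb lie below, and Padi4 between the dashed lines.

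Of the 24 genes the study names, chosen by it on these samples and so no independent evidence, 19 had a positive ratio and 3 passed 0.5, where 4987 of all 11400 genes had a positive ratio and 0.904% passed 0.5. These were Hmga1b, a high mobility group gene (2.36), the ribosomal protein gene Rpl26 (0.59) and Fosb, an immediate early gene (0.57). In the cells with Xist and without Y-linked UMIs, the ratios of Rpl26 and Fosb were 0.32 and 0.26 and no longer passed 0.5. The histone deacetylase gene Hdac1 stood at 133.0 and 171.1 CPM (0.36, 0.30 to 0.43), and Fos at 177.3 and 189.5 CPM (0.10, 0.03 to 0.16), which turned to −0.042 with thinned cells. Of the 3′ stretches of Hmga1b, 90.2% are shared with Hmga1, so that its level is uncertain. Of 42 S phase genes, 38 had a positive ratio, beside the 4987 of 11400 over all genes, with a median of 0.14, and in the other droplets their median was 0.17. None of the 42 or of the 52 genes of G2 and mitosis passed 0.5 in either direction, and the G2 and mitosis genes had a median of 0.06 in the class and −0.18 elsewhere.

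Several genes with the largest ratios also differed within the WT library. In the WT library 24.2% of the class held Xist and no Y-linked UMIs and 60.5% Y-linked and no Xist UMIs, so that it held cells of both sexes, while these shares were 97.7% and 0% in the PADI4 cKO-labelled library. Xist, Tsix, Uty, Eif2s3y, Kdm5d and Ddx3y were among the 20 largest ratios. Gm10260 stood at 1.30 CPM in the 266 WT cells with Xist UMIs, 20.1 CPM in the 664 with Y-linked UMIs and 188.0 CPM in the PADI4 cKO-labelled library. BC023719 gave 0 and 13 UMIs in these WT cells and 253 in the other library, and Gm8797 stood at 12.5 and 82.6 CPM within WT and 9.08 CPM in the other library. Of the stretches of Gm10260, 71.5% are shared with Gm11361 or Rps18, and of those of BC023719, 46.2% are shared with A930015D03Rik. The levels of both genes are uncertain, and the level of Gm8797 is uncertain too.

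Between the cells with Xist and without Y-linked UMIs alone, Padi4 had a ratio of −0.12 (−1.07 to 1.08), Padi3 −0.78, Krt90 −1.55, Krtap8-1 −0.58 and Gpnmb −1.37, while Krt75 turned from −0.74 to 0.37 and Mt4 from 0.05 to −0.22. Of 10544 genes compared among these fewer WT cells, 483 lay above 0.5 and 213 below −0.5, so that more genes were above than below, the other way round from all cells. Lrrc4c, which encodes a synaptic adhesion protein, was lower in the PADI4 cKO-labelled library than in both kinds of WT cells, with 4 UMIs against 169. Prr9, a proline-rich protein gene, gave 111 UMIs in only 7 WT cells, of which the Y-linked cells held 103, and 2 in the other library. Cstdc5 and Stfa3, of the stefin family, stood at 198 and 103 UMIs against 8 and 10. Doublet calls held 102 of the WT UMIs of Cstdc5, its 10 highest cells held 131, and 44.9% of the stretches of Cstdc5 are shared with its relatives.

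**Figure D5:**
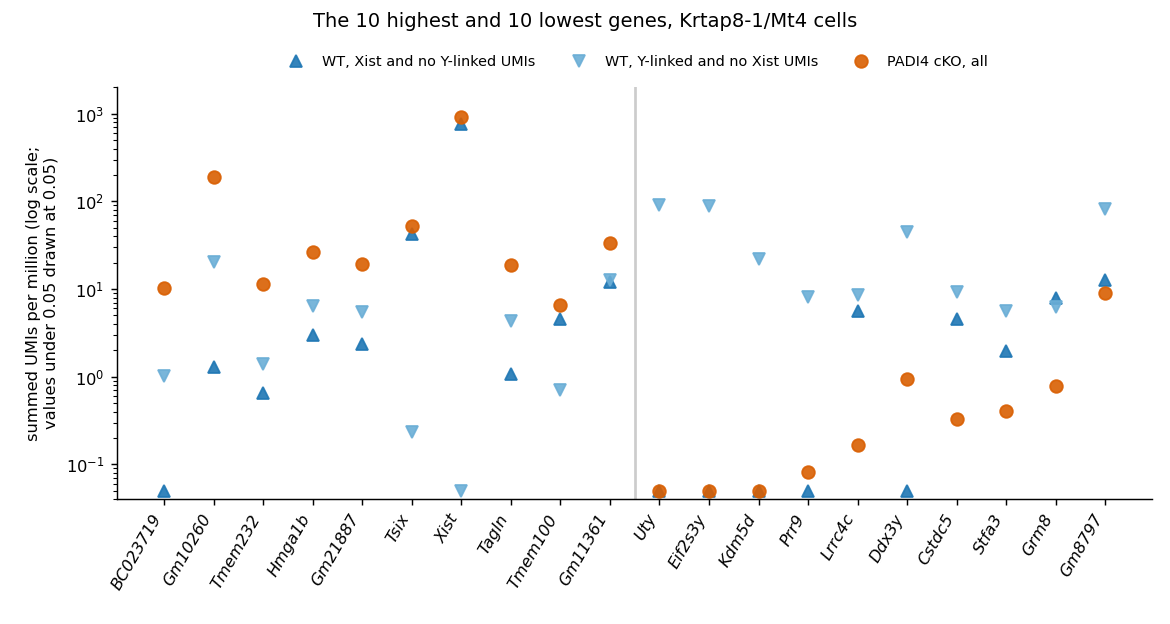
Summed CPM (log scale) of the 20 genes at both ends of the ratio, in the 266 WT cells with Xist and no Y-linked UMIs, in the 664 WT cells with Y-linked and no Xist UMIs, and in all cells of the PADI4 cKO-labelled library. Gm10260 and Gm8797 differ between both kinds of WT cells (1.30 and 20.1, 12.5 and 82.6), and Lrrc4c and Grm8 differ less within WT than from PADI4 cKO.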

How the data were processed

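The deposited values are raw UMI counts, which the authors obtained with Cell Ranger 7.1.0 from Chromium 3′ libraries (chemistry v3.1), with empty droplets included and no normalization. The submitters' processing notes give the build as mm10. CellBender and the correction for cell cycle phase with Harmony, which the study ran next, were not applied. The study also removed fibroblasts, melanocytes and clusters of mixed signature, and this was not done here. Of 32285 listed genes, 32158 matched GENCODE by identifier.

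The members, gene lists and thresholds were chosen with earlier results of these data known. For each library, UMIs of a group of cells were added up and divided by their total (CPM). Log2 ratios had 0.5 UMI added to each sum, with exact conditional binomial intervals; shares had exact binomial and CPM exact Poisson intervals. These cover counting error only. A gene was counted against the other droplets past 1 in both libraries, with at least 100 UMIs in the higher group, and between libraries past 0.5. Named genes were the given and textbook markers, the Padi genes, genes the study names, the 20 highest and 10 lowest against the other droplets, the 10 at each end of the other comparisons, and up to 4 of each list by UMIs or difference.

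Doublets were called with Scrublet in Scanpy 1.11.5 and kept, except in an alternative. Its automatic threshold called 1 WT droplet, so the value found in the PADI4 cKO-labelled library (0.207) was applied to each. Cells were thinned to 2000 UMIs without replacement. Shared stretches are windows of 31 bases near the 3′ end of a gene's transcripts that another listed gene also holds. Only the comparison of PADI4 cKO over WT in the class was run on simulated UMI sums with known changes. There, 95.2% of the intervals held the true value. The sums were drawn with the counting error that the intervals assume, so this checks the calculation only and not variation between cells or animals. Some genes met these rules but are not reported here.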

Additional observations from a re-analysis of the deposited data

Results flagged for a closer look

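Tagln and Mt4 had ratios of PADI4 cKO over WT of opposite sign in the Krtap8-1/Mt4 cells and in the other droplets, and neither difference was tested. Tagln, a smooth muscle gene, had a ratio of 1.84 (1.55 to 2.16) in the class and −0.11 in the other droplets, and 4.04 in cells with Xist and no Y-linked UMIs, which held 5 of its WT UMIs. Its 463 UMIs in the PADI4 cKO-labelled library lay in 34 cells, 438 of them in the 10 highest, and its 115 WT UMIs in 43 cells. Doublet calls held 230 and 46 of these UMIs, and without doublets the ratio was 1.58. Acta2 gave 52 and 11 UMIs, and the 4 muscle markers together 21.4 and 6.02 CPM, against 156.2 and 173.7 CPM in the other droplets. The part of doublets in the Tagln ratio beyond this was not tested.

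Mt4 had a ratio of 0.052 (0.02 to 0.09) in the class and −0.13 (−0.21 to −0.05) in the other droplets. The rule sorts droplets by Mt4, and the ratio was −0.04 with thinned cells and −0.22 in cells with Xist and no Y-linked UMIs.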

How the results depend on the processing

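No paired analysis was possible because each genotype had 1 library, and for the same reason no replicate could be left out. Quartiles of Krtap8-1 alone could not be formed, since 822 WT cells and 918 of the PADI4 cKO-labelled library held no Krtap8-1 UMI. Alternatives added after seeing the data were cells with UMIs of at least 2 rule genes and WT cells with Y-linked UMIs. The share of droplets in the class was 8.19% in WT and 9.77% in the other library with at least 10 rule-gene UMIs, 15.6% and 17.5% with 3, and 8.62% and 9.60% with 5 per 10000. With at least 4000 UMIs per droplet it was 13.6% in WT. Between libraries, 189 genes lay above 0.5 and 534 below −0.5 with a minimum of 50 UMIs, 23 and 72 with 500, and 2771 and 3677 with 1. With thinned cells 136 lay below, in the Xist cells 483 above, and against WT cells with Y-linked UMIs 157 above. After thinning, a Padi4 UMI was found in 0.82% and 0.44% of cells and a Padi3 UMI in 2.92% and 1.15%. With at least 10 rule-gene UMIs these shares were 6.06% and 4.86% for Padi4 and 19.6% for Padi3 in WT. Against the other droplets, thinning left 117 genes higher and 921 lower, and against the cortex and cuticle cells 115 were lower. Thinned quartiles gave 44 and 81 genes. Fewer genes and cells passed the minimum under thinning.

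Against the cortex and cuticle cells, of both libraries the smaller ratio changed sign for Ednra (−0.38), Krt90 (−0.10), 4933431K23Rik (−0.23), Crhr1 (−0.69), Mcub (−1.58), Bmper (−0.61), Notum (−0.28), Ryr2 (−0.43), Hoxc13 (−1.23), Msx2 (−0.14), Padi3 (−1.56), Krt35 (−2.78), Sat1 (−0.66) and Tchh (0.44). Between libraries the ratio changed sign for Fos (−0.042) and Mt4 (−0.041) with thinned cells, for Shh (−0.0093), Bmp2 (−0.16), Mt4 (−0.22) and Krt75 (0.37) in the Xist cells, and for Foxq1 (−0.41) and Krt35 (0.043) in cells with at least 2 rule genes. The cause was not tested. Of 606 values for single genes under all alternatives, 477 kept their direction and their side of the threshold or stayed within 0.5 where no interval was used, 72 moved further, 25 no longer passed, 10 came to pass, and 22 changed sign. Without doublets, all counts stayed within 1.5 times their values.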

Other observations

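Further gene groups are given here beside all genes, of which 1.84% were higher and 12.0% lower than in the other droplets. Of 10 Notch genes, Jag1, a Notch ligand gene, was the 1 past 1 log2 unit, at 144.2 CPM in the WT cells and 119.7 in the PADI4 cKO-labelled library against 65.9 and 58.3 in the other droplets. Of 7 endothelin and Kit ligand genes, 1 was higher, the given gene Ednra, and 3 were lower. Edn1 and Edn2, which encode endothelins, were at 7.81 and 9.61 CPM against 36.2 and 43.2, and at 6.80 and 5.01 CPM against 32.8 and 33.3. Kitl, the Kit ligand gene, was at 472.3 and 309.7 CPM against 132.0 and 155.7, which put it past 1 in WT (1.84) and just under it in the other library (0.99). Of 7 outer root sheath genes, 6 were lower, among them Krt15 (−2.93 and −3.16) and Sox9 (−2.74 and −3.03). None of 22 ribosome biogenesis genes passed 1 in either direction, and the medians were 0.20 and 0.13.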
